A study of Homo sapiens with 6 samples.

Results

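VEGFA, VEGFB, VEGFC, KDR, FLT1, TFPI, TFPI2, ANGPTL4 and SERPINF1 are 9 genes of vessel growth and of the vessel-like networks that tumour cells form, a behaviour called vasculogenic mimicry (VM). They were taken by gene symbol from a table of 16570 genes, and all 9 were found in it. Expression was compared between BR-shSPANXB1 and BR-shCON cells, with 3 samples in each group. BR is MDA-MB-231BR, a brain-tropic derivative of the human triple-negative breast cancer line MDA-MB-231. BR-shCON cells received the empty lentiviral shRNA vector, and BR-shSPANXB1 cells the same vector with 1 shRNA against SPANXB1, a cancer-testis antigen. The study's methods give DMEM with serum and G418 as the medium of BR cells. Both lines had been selected with puromycin as stable populations, so the knockdown group stands for 1 shRNA and 1 selected population. The study's methods state in general that replicates were biological and came from separate batches of cells, without naming the RNA samples, and the labels do not say which cultures these came from, so the p-values measure the spread between these samples. The extraction text in the labels names the unmodified cells, and the groups follow the sample titles. The labels name cultured tumour cells and no co-culture, and the study asked with the same pair of lines whether SPANXB1 affects migration, invasion and VM formation.

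Levels are given as FPKM, a fragment count divided by transcript length and by library size, and the estimated counts behind them summed to 16294462 to 16666167 per sample. Differences are log2 fold changes, positive where BR-shSPANXB1 cells had more RNA of a gene than BR-shCON cells, and a gene is said to have risen or fallen only at an adjusted p under 0.05 in edgeR. The silenced gene was lower in the cells labelled as knockdown. SPANXB1 had 445, 563 and 515 FPKM in BR-shCON cells against 232, 260 and 248 FPKM in BR-shSPANXB1 cells, so 46.4% of the control level remained (95% interval of the ratio 0.430 to 0.502). Of all 11439 genes with a mean of at least 1 FPKM, 13.8% changed, 6.82% upwards and 6.98% downwards.

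VEGF ligands are secreted proteins that bind receptor tyrosine kinases, of which KDR (VEGFR2) carries most of the growth and migration signal in endothelium and FLT1 (VEGFR1) binds VEGFA, VEGFB and PGF and can act as a decoy. VEGFC acts mainly on lymphatic vessels through FLT4. TFPI and TFPI2 are secreted protease inhibitors with Kunitz domains; TFPI blocks the tissue factor and factor VIIa complex that starts coagulation, and TFPI2 inhibits plasmin and several other serine proteases at the matrix and is itself known from tumour cells that form vessel-like channels. ANGPTL4, a secreted inhibitor of lipoprotein lipase, is induced by hypoxia and by fatty acids through PPAR factors, and SERPINF1 (PEDF) is a secreted serpin that restrains vessel growth.

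The shRNA is shown first, because it is what separates the groups. Its target, read from the study's list of constructs, is printed from 5′ to 3′ in lower case.
shSPANXB1: gaggaggaggaattcatagaa
All 21 bases occur in the SPANXB1 transcript of GENCODE v29. In the transcripts of the 9 genes the longest stretch shared with the target ran from 7 bases, in VEGFB, VEGFC, TFPI2 and ANGPTL4, to 12 bases, in KDR. The promoters of the 3 genes that fell are shown next, as the 250 bases before the RefSeq start on GRCh38.p14, on the strand of the gene and from 5′ to 3′. Capitals mark the letters of 4 motifs searched on both strands, which are the hypoxia response cores ACGTG and GCGTG, the AP-1 site TGANTCA and the SP factor site GGGCGG.
TFPI2 (chr7:93890754-93891003, minus strand): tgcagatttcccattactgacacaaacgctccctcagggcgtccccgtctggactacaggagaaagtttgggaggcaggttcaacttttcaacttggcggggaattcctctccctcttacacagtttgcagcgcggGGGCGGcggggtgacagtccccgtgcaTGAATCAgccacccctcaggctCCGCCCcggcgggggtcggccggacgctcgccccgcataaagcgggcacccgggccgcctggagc
TFPI (chr2:187554436-187554685, minus strand): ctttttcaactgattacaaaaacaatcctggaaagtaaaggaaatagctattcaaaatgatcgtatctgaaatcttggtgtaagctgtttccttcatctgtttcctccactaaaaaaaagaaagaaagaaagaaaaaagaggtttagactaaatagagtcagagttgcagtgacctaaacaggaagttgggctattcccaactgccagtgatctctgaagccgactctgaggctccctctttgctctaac
KDR (chr4:55125596-55125845, minus strand): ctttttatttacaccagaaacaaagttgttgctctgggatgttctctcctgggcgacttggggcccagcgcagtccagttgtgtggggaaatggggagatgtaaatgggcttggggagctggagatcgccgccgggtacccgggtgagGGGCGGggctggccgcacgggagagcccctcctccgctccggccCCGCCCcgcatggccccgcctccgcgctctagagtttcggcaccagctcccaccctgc

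The 3 windows differ in composition. That of TFPI2 holds 64.4% G and C and 20 CpG sites, that of KDR 65.2% and 17, and that of TFPI 38.4% and 2, against medians of 58.0% and 11 over 35116 promoters. TFPI2 holds the AP-1 letters once, as TGAATCA, 87 bases before the start. The search allowed any base at the N, and 6.57% of all promoters hold this looser pattern. TFPI2 also holds GGGCGG on either strand, as do 42.6%. KDR holds GGGCGG only, and none of the 4 motifs occurs in the TFPI window. The windows of TFPI and ANGPTL4 lie inside the GENCODE v29 gene, and that of TFPI2 does so for nearly all its length, the AP-1 letters included, so each is the window of 1 start among others. Of the 7 genes with a RefSeq window, ANGPTL4 holds ACGTG, found in 18.5% of promoters, and VEGFB, VEGFC and FLT1 hold GCGTG, found in 32.2%.

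Of the 9 genes 8 were high enough to be tested, and FLT1 was not. TFPI2, TFPI and KDR fell and SERPINF1 rose, while VEGFA, VEGFB, VEGFC and ANGPTL4 did not pass the test. That is 4 of 8, set beside 13.8% of all tested genes. The members were chosen with earlier results of these data known, so this count is a description and no independent test. With the replicate number as a block the same 4 were called, where 25.7% of all genes were (12.7% higher, 13% lower), and so they were without the filter, where 11.1% were (5.57% higher, 5.52% lower). Limma on log2(FPKM + 0.1) called SERPINF1, TFPI and TFPI2 among 7.57% of all genes (4.51% higher, 3.06% lower), and DESeq2 called TFPI and TFPI2 among 8.92% (4.39% higher, 4.53% lower). The median log2 fold change of the 8 was -0.05 and their median absolute change 0.24, beside 0.00023 and 0.08 over all tested genes. No member reached the fold threshold of the study, 0.59 on the log2 scale, which together with the adjusted p and a control FPKM over 1 was met by 0.621% of all tested genes.

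**Figure D1:**
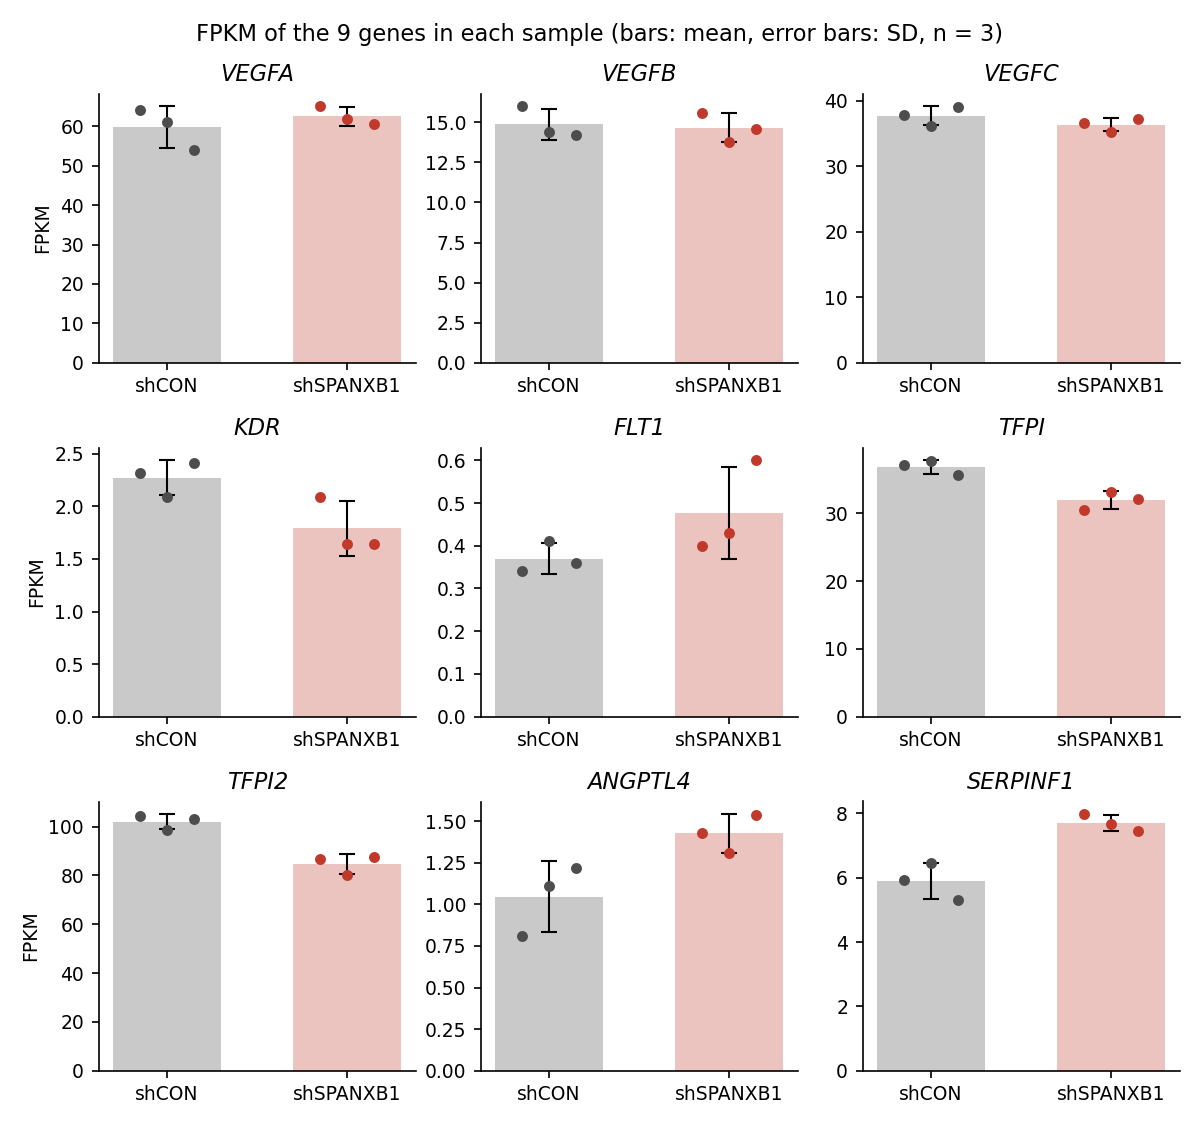
FPKM (vertical axes, each from 0) of the 9 genes in the samples of BR-shCON (grey) and BR-shSPANXB1 cells (red). Points are samples, bars means and error bars the SD (n = 3); the points of the groups are separated for TFPI, TFPI2, ANGPTL4 and SERPINF1, touch for KDR and are mixed for the VEGF ligands and FLT1.

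By level per length, TFPI2 led in BR-shCON cells at a mean of 102 FPKM, which is above 95.1% of the genes in the table. VEGFA followed at 59.8 FPKM, then VEGFC at 37.7 and TFPI at 36.8, whose samples overlapped. VEGFB stood at 14.9, SERPINF1 at 5.90, KDR at 2.27, ANGPTL4 at 1.05 and FLT1 at 0.370 FPKM, and no other neighbours in this order overlapped. The order was kept in BR-shSPANXB1 cells, where the TFPI samples also lay below those of VEGFC. All 3 VEGF ligands were above both receptors, with KDR above 36.8% and FLT1 above 25.3% of the genes in the table.

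VEGFA (chromosome 6, 43770184 to 43786487, plus strand of GRCh38 in GENCODE v29), the main driver of vessel sprouting, had 64.2, 61.2 and 54.0 FPKM in BR-shCON cells against 65.1, 61.9 and 60.6 FPKM in BR-shSPANXB1 cells. The groups overlapped, and the lowest value belonged to a control sample. Its log2 fold change was 0.05 (95% interval -0.05 to 0.15, adjusted p = 0.527), which is a ratio between 0.969 and 1.11. VEGFC (chromosome 4, 176683538 to 176792727, minus strand) had 37.9, 36.1 and 39.1 against 36.6, 35.3 and 37.3 FPKM. These groups overlapped as well, and the log2 fold change was -0.07 (interval -0.16 to 0.03, adjusted p = 0.394). VEGFB (chromosome 11, 64234538 to 64238793, plus strand), a ligand of FLT1 linked to fatty acid uptake, had 16, 14.4 and 14.2 against 15.6, 13.8 and 14.6 FPKM, with replicate 1 the highest in both groups. Its log2 fold change was -0.04 (interval -0.19 to 0.11, adjusted p = 0.777). For each of the 3 ligands the interval excludes the fold threshold of the study in either direction. The sign of the VEGFA estimate turned without BR-shCON replicate 3 (-0.01) and that of VEGFB without BR-shCON replicate 1 (0.02).

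KDR (chromosome 4, 55078259 to 55125595, minus strand) fell in BR-shSPANXB1 cells. Control samples had 2.32, 2.09 and 2.41 FPKM and knockdown samples 2.09, 1.64 and 1.64 FPKM, so that 1 control and 1 knockdown sample met at 2.09. The counts behind them were 212, 191 and 221 against 189, 151 and 150. The difference was -0.36 on the log2 scale (standard error 0.10, edgeR adjusted p = 0.020), a ratio of 0.782 with an interval from 0.675 to 0.905. The call was lost with DESeq2 (adjusted p = 0.079) as well as in limma at a pseudocount of 0.1 on the FPKM (adjusted p = 0.127), and a pseudocount of 1 gave -0.23. It was also lost when control replicate 1 or 3 or knockdown replicate 2 or 3 was left out, with adjusted p up to 0.110 in edgeR.

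FLT1 (chromosome 13, 28300344 to 28495145, minus strand) stayed under 1 FPKM in every sample, at 0.34, 0.41 and 0.36 FPKM with the empty vector and 0.40, 0.43 and 0.60 FPKM with the shRNA. These rest on 25, 32 and 26 counts against 30, 37 and 31. The sample with the highest FPKM did not have the most counts. When no filter was applied, where 11.1% of 16545 genes changed, FLT1 did not pass (log2 fold change 0.23, interval -0.23 to 0.69, adjusted p = 0.609 in edgeR).

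TFPI2 (chromosome 7, 93885396 to 93890991, minus strand) fell and was the member with the smallest p-value. The control samples had 104, 98.8 and 103 FPKM and the knockdown samples 86.8, 80.1 and 87.6 FPKM, from 3121 to 3320 counts against 2550 to 2755. All knockdown samples lay below all control samples. On the log2 scale the difference was -0.28 (standard error 0.04, edgeR adjusted p = 2.0e-05), a decrease to 0.822 of the control level (interval 0.774 to 0.872). The call held in DESeq2, in limma at each pseudocount and without any 1 sample, with adjusted p up to 0.0079.

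TFPI (chromosome 2, 187464230 to 187565760, minus strand) fell by less. It had 37.1, 37.7 and 35.7 FPKM in BR-shCON cells against 30.5, 33.2 and 32.2 FPKM in BR-shSPANXB1 cells. The groups did not overlap here either. On the log2 scale this was -0.20 (standard error 0.05, edgeR adjusted p = 0.0084), a ratio of 0.870 (interval 0.808 to 0.936), and without BR-shCON replicate 1 the adjusted p was 0.059. The number of counts per FPKM, which follows the transcript length used for a gene, varied for TFPI from 25.5 to 29 between samples, a range of 13.7%. It was lower in replicate 2 of both groups than in replicates 1 and 3. Among 6761 tested genes with a mean of at least 500 counts the median range was 2.27%, and 2.93% of them had a range as wide as that of TFPI. GENCODE v29 lists 12 transcripts of TFPI and 7 of TFPI2, whose counts per FPKM varied by 1.90%. The fall of TFPI was present in both units, with a log2 fold change of -0.20 in limma on log2(FPKM + 0.1) (adjusted p = 0.026). A smaller number of transcripts per cell cannot be told apart from fewer cells with the transcript, in these or the other genes.

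SERPINF1 (chromosome 17, 1761959 to 1777574, plus strand) rose. It had 5.94, 6.45 and 5.32 FPKM in BR-shCON cells against 7.97, 7.67 and 7.46 FPKM in BR-shSPANXB1 cells, or 102 to 122 against 139 to 150 counts. The groups did not overlap. The difference was 0.36 on the log2 scale (standard error 0.11, edgeR adjusted p = 0.031), a 1.28-fold higher level (interval 1.09 to 1.5). The call was lost with DESeq2 (adjusted p = 0.140) and when control replicate 1 or 3 or knockdown replicate 1 or 2 was left out, with adjusted p up to 0.121 in edgeR. Limma on log2(FPKM + 0.1) kept it (adjusted p = 0.017).

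ANGPTL4 (chromosome 19, 8363289 to 8374373, plus strand) had the largest log2 fold change of the members, 0.45, but did not pass the test (interval 0.0026 to 0.89 before adjustment, adjusted p = 0.183 in edgeR). Control samples were at 0.81, 1.11 and 1.22 FPKM and knockdown samples at 1.43, 1.31 and 1.54 FPKM. All knockdown samples were above all control samples, but the values rest on 21, 28 and 32 counts against 37, 34 and 40. The log2 fold change was 0.29 without BR-shCON replicate 1, the lowest sample, and 0.25 in limma on log2(FPKM + 1). Groups without overlap were found for 4 of the 8 tested members and for 28.6% of all tested genes, and the exact permutation test of single genes reached its smallest possible two-sided p of 0.1 in those 4.

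**Figure D2:**
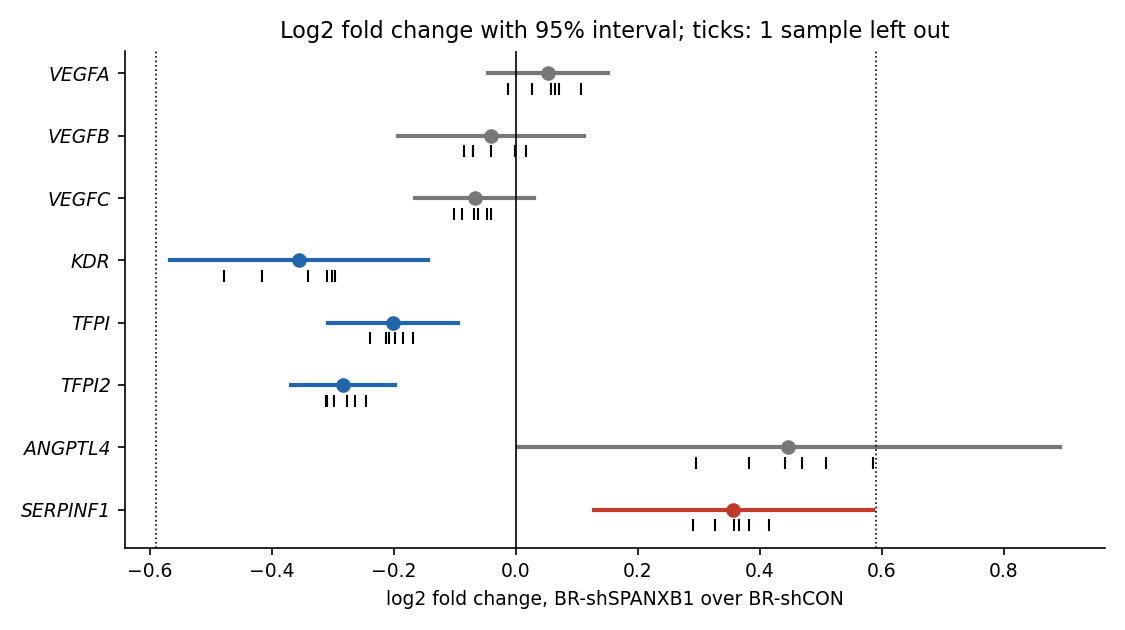
Log2 fold change between the groups (horizontal axis, above 0 for more RNA in BR-shSPANXB1 cells) for the 8 tested genes, with points for estimates, bars for the 95% interval before adjustment and ticks for the estimates with 1 sample left out (blue, fell; red, rose; grey, did not pass). The study's threshold of 0.59 is drawn as dotted lines, and the estimates run from -0.36 for KDR to 0.45 for ANGPTL4.

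The rest of the VEGF family was measured next to the members. Of 10 ligands, receptors and co-receptors 7 were tested, 1 rose and 1 (KDR) fell, which is 28.6% beside 13.8% of all tested genes. The gene that rose was PGF, which encodes placental growth factor, a ligand of FLT1. It had 18.5, 18.7 and 18.8 FPKM in BR-shCON cells against 27.2, 24.6 and 24.4 FPKM in BR-shSPANXB1 cells, without overlap, with a difference of 0.43 on the log2 scale (standard error 0.06, edgeR adjusted p = 1.4e-05). The co-receptors NRP1, at 45.3 FPKM in BR-shCON cells, and NRP2, at 5.77 FPKM, had log2 fold changes of -0.04 (adjusted p = 0.548) and 0.10 (adjusted p = 0.271). The ligand gene VEGFD and the receptor gene FLT4 had means of 0.053 and 0.030 FPKM in BR-shCON cells. PGF was the 1 ligand of 4 tested that passed, and whether its difference exceeds those of VEGFA, VEGFB and VEGFC was not tested.

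Of 43 tested genes that carry the signal of VEGF receptors inside the cell, 3 rose and 3 fell, 14% beside 13.8% of all genes, and their median was -0.03 on the log2 scale. PXN (paxillin), an adaptor of focal adhesions, fell from 121 ± 3.13 to 94.5 ± 3.15 FPKM (SD, n = 3; log2 fold change -0.35, adjusted p = 1.6e-07 in edgeR). The kinase genes AKT1 (0.21) and PRKCD (0.23) rose. MAPK14 (-0.14) fell in edgeR and was at -0.04 in limma on log2(FPKM + 0.1), where it did not pass, nor did it pass when control replicate 2 or knockdown replicate 1 was left out. PRKCD did not pass without knockdown replicate 3 (adjusted p = 0.056 in edgeR). The blocked fit gave 5 rises and 7 falls in this list, DESeq2 2 and 3, and limma 2 and 1. Of all genes these fits called 25.7%, 8.92% and 7.57%.

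Of 25 tested genes tied to VM 2 rose and 7 fell, which is 36.0% beside 13.8% of all tested genes, and the median log2 fold change was -0.04. The list was chosen with earlier results of these data known, so its share is a description and no independent test. The members TFPI, TFPI2 and KDR are 3 of those that fell. PTGS2, the inducible cyclooxygenase, fell from 26.2 ± 1.06 to 18.9 ± 2.09 FPKM (SD, n = 3; log2 fold change -0.49, adjusted p = 6.2e-07 in edgeR), and SNAI2, a transcription factor of epithelial-mesenchymal transition, fell with a log2 fold change of -0.39 (adjusted p = 1.1e-05). F3 (tissue factor, -0.24) and the laminin chain gene LAMA3 (-0.22) fell too. AXL, a receptor tyrosine kinase, rose (0.22), as did the ephrin receptor gene EPHA2 (0.16), which with LAMA3 was named after its value was seen. Counts of rises and falls were 3 and 8 in the blocked fit, 2 and 5 with DESeq2 and 1 and 5 with limma on log2(FPKM + 0.1). Of all genes these fits called 25.7%, 8.92% and 7.57%. LAMA3 lost its call in DESeq2, in limma and without control replicate 2 or knockdown replicate 1 or 3, and EPHA2 in limma and without control replicate 3 or knockdown replicate 2.

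In the tissue factor pathway, to which TFPI and TFPI2 belong, 2 of 12 tested genes rose and 5 fell, which is 58.3% beside 13.8% of all tested genes, and the median of the list was -0.12 on the log2 scale. F3, TFPI and TFPI2 were also counted in the VM list, and this list too was chosen with earlier results known. Tissue factor itself, the trigger of coagulation and the target of TFPI, had 108, 111 and 113 FPKM in BR-shCON cells against 96.2, 89.0 and 99.0 FPKM in BR-shSPANXB1 cells (adjusted p = 1.7e-04 in edgeR). Trigger and inhibitors were thus lower in the same cells, F3 at a log2 fold change of -0.24 between TFPI at -0.20 and TFPI2 at -0.28. THBD (thrombomodulin), which turns thrombin towards anticoagulant protein C, went from 39.1, 37.3 and 35.9 FPKM to 28.8, 25.1 and 26.6 FPKM, the largest fall of the list (log2 fold change -0.49, standard error 0.05, adjusted p = 1.5e-08). PROS1, which encodes protein S, a cofactor of both activated protein C and TFPI, fell as well (-0.27). F2RL1 (0.17), a receptor cleaved by the tissue factor complex, was among those that rose. PROS1 and F2RL1 were named after their values were seen, and F2RL1 lost its call in limma and without control replicate 1 or 2 or knockdown replicate 3. In the other fits 2 rose and 7 fell with the block, 2 and 6 with DESeq2 and 1 and 5 with limma on log2(FPKM + 0.1). Of all genes these fits called 25.7%, 8.92% and 7.57%. Among 6 tested genes with Kunitz domains, SPINT2 (0.15) and COL7A1 (0.20) rose in edgeR, both without passing in limma on log2(FPKM + 0.1), and TFPI and TFPI2 were the 2 that fell. That is 66.7% beside 13.8% of all tested genes. SPINT2 also lost its call without control replicate 3 or knockdown replicate 1 or 2.

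**Figure D3:**
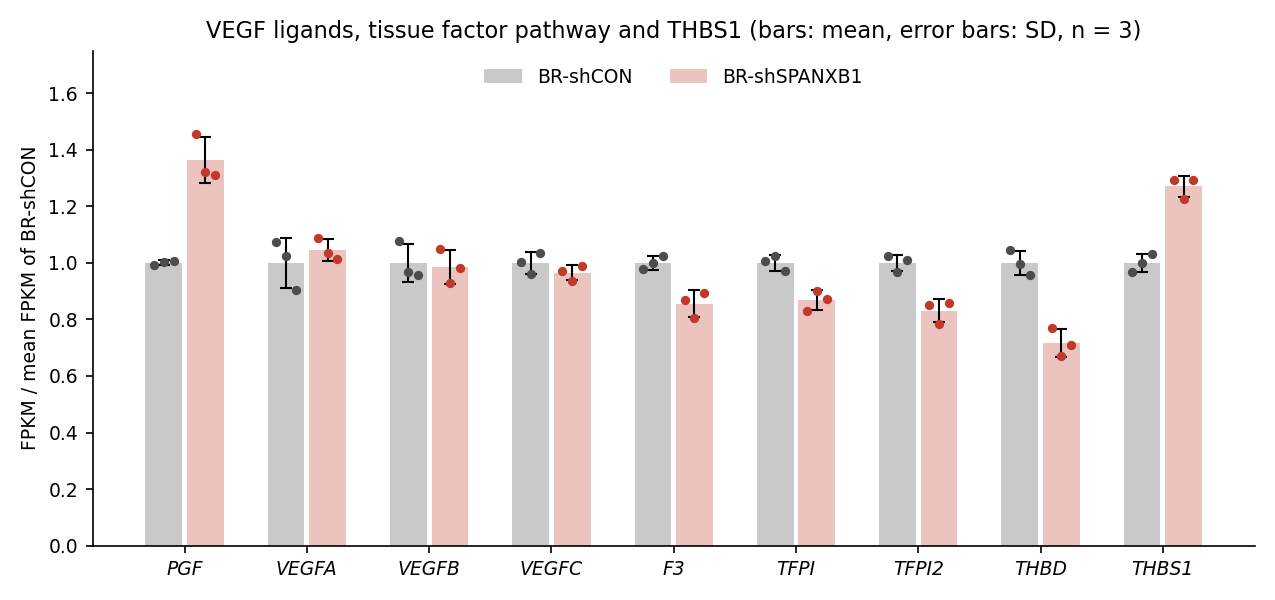
FPKM of VEGF ligands, genes of the tissue factor pathway and THBS1, as a ratio to that gene's mean in BR-shCON cells (vertical axis, from 0), in BR-shCON (grey) and BR-shSPANXB1 cells (red). Points are samples, bars means and error bars the SD (n = 3); PGF and THBS1 lie higher and F3, TFPI, TFPI2 and THBD lower in BR-shSPANXB1 cells, without overlap.

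Genes that regulate the members, and other targets of the same regulators, were counted next. Of 11 tested hypoxia factors and regulators, ARNT2 (0.40) rose and CITED2 (-0.13) fell, which is 18.2% beside 13.8% of all tested genes. HIF1A, the oxygen-regulated factor that drives VEGFA and ANGPTL4, was at 51.8 FPKM in BR-shCON and 55.5 FPKM in BR-shSPANXB1 cells and did not pass (log2 fold change 0.09, adjusted p = 0.162), but passed in edgeR once replicate numbers were blocked (adjusted p = 0.014). CREBBP, a coactivator of HIF factors, was at -0.11 and likewise passed in the blocked fit alone (adjusted p = 0.089 without and 0.010 with the block), where 2 of the list rose and 2 fell. EPAS1 (-0.03) and ARNT (0.12) did not pass. Of 28 tested hypoxia-induced genes 4 rose and 7 fell, which is 39.3% beside 13.8% of all tested genes, and the median was 0.01 on the log2 scale. The glucose transporter gene SLC2A1 (0.23) rose and its relative SLC2A3 (-0.36) fell, as did the stress gene NDRG1 (-0.32) and the carbonic anhydrase gene CA12 (-0.41). Of 14 tested PPAR targets, a list that holds ANGPTL4, 3 rose, ACADVL (0.19) and CPT1A (0.19) of fatty acid oxidation and TXNIP (0.18), and FABP5 (-0.19), a fatty acid carrier, fell, with a median of 0.09. That is 28.6% of the PPAR targets beside 13.8% of all tested genes. The blocked fit, which called 25.7% of all genes, gave 6 rises and 1 fall among the PPAR targets. CPT1A and FABP5 did not pass in DESeq2 or limma, CPT1A also not without control replicate 2 or 3 or knockdown replicate 1, and FABP5 not without replicate 1 or 3 of either group. CITED2 did not pass in limma or when control replicate 1 or any 1 knockdown sample was left out.

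Of 16 tested angiogenesis inhibitors 5 rose and 5 fell, which is 62.5% beside 13.8% of all tested genes. Their median log2 fold change was -0.06. This list too was chosen with earlier results of these data known, so its share is a description and no independent test. SERPINF1 is 1 of those that rose. THBS1 (thrombospondin 1) rose from 44.6 ± 1.41 to 56.6 ± 1.71 FPKM (SD, n = 3; log2 fold change 0.34, adjusted p = 4.3e-07 in edgeR). COL18A1 (0.62), which encodes the precursor of endostatin, and VASH1 (0.49), which encodes vasohibin, rose from levels of 1.11 and 1.40 FPKM. TIMP3 (0.13), a metalloproteinase inhibitor that also blocks VEGFA from KDR, rose too. SPRED1 (-0.22), an inhibitor of RAS signalling, ADAMTS1 (-0.21), TIMP1 (-0.17) and the semaphorin genes SEMA3A (-0.22) and SEMA3B (-0.37) fell. TIMP3, ADAMTS1, TIMP1, SEMA3A and SEMA3B were named after their values were seen. DESeq2 gave 4 rises and 3 falls, and limma on log2(FPKM + 0.1) gave 4 and 1, where 8.92% and 7.57% of all genes were called. TIMP1 and SEMA3B lost their calls in DESeq2, in limma, with library totals alone and, apart from control replicate 3, without any 1 sample, and TIMP3 lost its call without control replicate 2 or knockdown replicate 3. Of 27 tested further angiogenic factors 2 rose, TGFA (0.23) and ADM (0.21), and 3 fell, the chemokine gene CXCL8 (-0.32), CCN2 (-0.18) and HMGB1 (-0.14), with 3 rises and 8 falls in the blocked fit. That is 18.5% beside 13.8% of all tested genes without the block, and the blocked fit called 25.7% of all genes. HMGB1 did not pass without control replicate 3 or knockdown replicate 2. Of 4 tested angiopoietin-like and related genes LIPG (-0.27), endothelial lipase, fell, with a call that DESeq2 (adjusted p = 0.156) and limma (adjusted p = 0.132) did not make, and ANGPTL2 (-0.17) did not pass. LIPG also lost its call with library totals alone and when any 1 sample other than knockdown replicate 3 was left out. ADM did not pass without control replicate 2 (adjusted p = 0.058 in edgeR), and CCN2, SPRED1, ADAMTS1 and TIMP3 (adjusted p = 0.05002) did not pass in limma on log2(FPKM + 0.1).

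**Figure D4:**
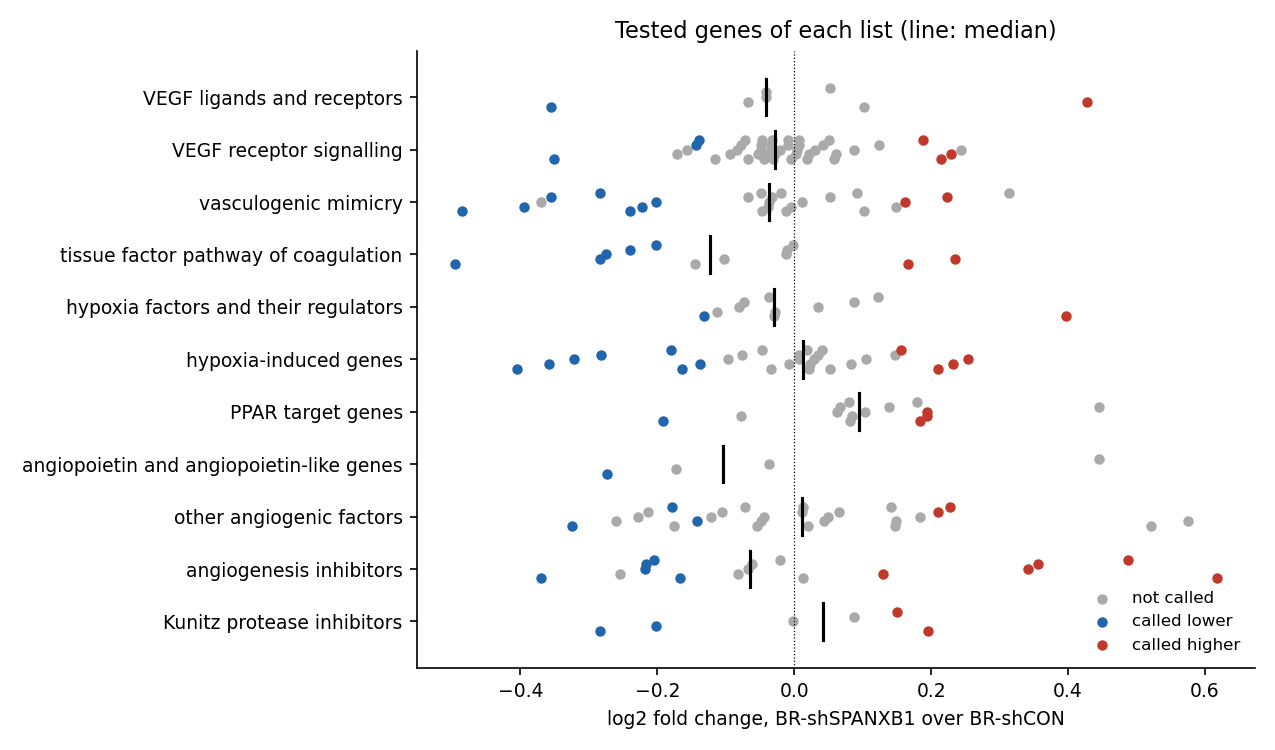
Log2 fold change between the groups (horizontal axis, above 0 for more RNA in BR-shSPANXB1 cells) for the tested genes of 11 lists, where each point is a gene (blue, fell; red, rose; grey, did not pass) and the black line the median of the list. The medians lie between -0.12 for the tissue factor pathway and 0.09 for PPAR targets, and genes moved in both directions within most lists.

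The labelled cell type was compared with its markers. VIM and CD44, typical of this mesenchymal-like line, were at 2187 and 205 FPKM in BR-shCON cells. Of the 10 markers of the line, all tested, 2 rose, KRT8 (0.19) and AXL, where 13.8% of all tested genes were called. The blocked fit, which called 25.7% of all genes, gave 6 rises and 1 fall among these markers. Of 14 endothelial markers, which include KDR and FLT1, 9 had a mean under 1 FPKM. Among the 14, CDH5, VWF and TEK were at 0.0067, 0.040 and 0.037 FPKM in BR-shCON cells, and TIE1, ESAM and ROBO4 at 51.9, 97.9 and 46.9 FPKM. ROBO4 rose (log2 fold change 0.32, adjusted p = 1.1e-05 in edgeR) while KDR alone fell among the 5 tested, 40.0% beside 13.8% of all tested genes. The summed FPKM of the 14 genes ranged from 189 to 212 in BR-shCON and from 214 to 226 in BR-shSPANXB1 cells. Of 9 leukocyte markers 6 were in the table. CD68 (-0.21) alone was tested and fell, a single call where 13.8% of all tested genes were called. The summed FPKM of these markers was 76.4 to 78.8 in BR-shCON and 65.8 to 70.8 in BR-shSPANXB1 cells. Of 9 fibroblast and pericyte markers 6 were in the table, with a summed FPKM of 3.43 to 5.55. Of 9 neural and glial markers 3 were tested and TUBB3 (0.17) rose, 33.3% beside 13.8% of all tested genes. Of 11 luminal markers 5 were tested, of which KRT7 (0.64) and CLDN4 (0.67) rose and EPCAM (-0.35) fell, 60.0% beside 13.8% of all tested genes. EPCAM lost its call in DESeq2, in limma and without replicate 1 or 3 of the controls or 2 or 3 of the knockdown samples, KRT7 in DESeq2 and without replicate 3 of either group, and TUBB3 in limma and without control replicate 1 or knockdown replicate 1 or 2. HMGB1 and these single markers were named after their values were seen. Their part in the changes of the 9 genes was not tested.

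SERPINF1 had the largest absolute log2 fold change of the members that changed, 0.357 beside -0.355 for KDR, with standard errors of 0.11 and 0.10. This order is a near tie, and without BR-shSPANXB1 replicate 1 SERPINF1 was at 0.33 and KDR at -0.48. Across the 6 samples the genes with the log2(FPKM + 0.1) pattern most similar to that of SERPINF1 were DDX19B (Pearson's r = 0.998), C12orf57, SLCO4A1, ABR and COL7A1 (r = 0.992), of 11438 compared. These values are a description, since all samples share the split into 2 groups, and 185 genes had r above 0.95.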

How the data were processed

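The deposited table holds, for each gene, estimated counts without normalization. It also holds FPKM, in which the authors divided by transcript length and library size. Bowtie2 2.2.5, HISAT2 2.0.4 and the build GRCh38.p12 appear in the submitters' processing notes, without roles, and the counting program and annotation were not given in the sources used here. Libraries were poly(A)-selected, and the protocol names no step that marks strand. The 6 columns of TPM values and the authors' averages were not used.

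Counts, 14.5% of them not whole, were rounded, scaled by TMM and tested with edgeR 4.0.16 (robust quasi-likelihood fit, R 4.3.3), with Benjamini-Hochberg adjustment over the 11439 genes that averaged 1 FPKM or more. The scripts were tested on simulated data. DESeq2 1.42.0 and limma 3.58.1 were alternatives. Precision rests on 3 samples per group, the variance shared across genes and counting error. Counts of samples within a group differed by more than sampling noise (chi-square over its degrees of freedom 2.10 to 3.31). Each was counted as 1 sample. Such spread does not show whether the samples came from separate cultures, which the labels do not state. Same-numbered samples deviated together (correlations across genes of 0.113, 0.150 and 0.159 on log2 CPM, and 0.096, 0.135 and 0.104 on log2 FPKM), although the labels do not say what a number shares. The main fit used the group alone, and the replicate number entered as a block only in alternative fits, which pair the samples. A rise or fall given without a named fit is from the unblocked fit. That fit called 13.8% of all tested genes, against 25.7% with the block.

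The members and lists were chosen with earlier results of these data known. Named genes were the members, SPANXB1, the VEGF family, HIF1A, EPAS1, ARNT and up to 4 genes of each list by adjusted p. Lists came from textbook knowledge. A gene that the rule names is not reported here, though the counts of its list include it. Positions are from GENCODE v29 (GRCh38), and promoters from RefSeq (GRCh38.p14), where 7 of 9 members matched. Figures used matplotlib 3.10.9.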

Additional observations from a re-analysis of the deposited data

How the results depend on the processing

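Over all genes 780 rose and 799 fell. These counts were 502 and 518 with DESeq2, 516 and 350 with limma on log2(FPKM + 0.1), 517 and 350 at a pseudocount of 0.01, and 351 fell at a pseudocount of 1. With limma 59.6% of the changed genes had risen, against 49.4% in edgeR. With the replicate number as a block, which pairs the samples, 1452 rose and 1483 fell, or 1480 and 1501 without the expression filter, a setting chosen after seeing the data; the block changed no call of a member. Leaving out 1 sample gave 532 to 714 rises and 509 to 752 falls, the fewest without BR-shSPANXB1 replicate 2. By the criteria of the study 29 rose and 42 fell, with 0 members in either direction. Of the members 1 rose and 3 fell; DESeq2 called 0 rises, and leaving out 1 sample gave 0 to 1 rises and 1 to 3 falls. TFPI2 kept its call in 17 alternatives (-0.31 to -0.25) and TFPI in 16 of 17 (-0.24 to -0.17). KDR lost its call with DESeq2 (-0.36) and with limma (-0.33, -0.23 and -0.35 at pseudocounts of 0.1, 1 and 0.01), and ranged from -0.48 to -0.30 with 1 sample left out. SERPINF1 lost its call with DESeq2 (0.36) and ranged from 0.29 to 0.41. With 1 sample left out, VEGFA ranged from -0.013 to 0.106 and VEGFB from -0.0855 to 0.0169, and EPAS1 from -0.0706 to 0.0017, the last without BR-shSPANXB1 replicate 2. The cause was not tested. A mean FPKM of at least 5 left KDR and ANGPTL4 untested. Few counts limit ANGPTL4 and FLT1.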
